A study of Mus musculus with 8 samples.

Results

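The angiomotin family has 3 members in the mouse, Amot, Amotl1 and Amotl2, and their expression was measured by RNA-Seq in Lewis lung carcinoma (LLC) cells that carry or lack Factor-inhibiting HIF (FIH). The members were taken by gene symbol from a count table of 53700 genes. All 3 were found once, and all 3 were among the 13933 genes that passed the filter on low counts and were tested. LLC is a mouse lung tumor line kept in DMEM with fetal bovine serum. FIH-KO cells were made from it by CRISPR/Cas9 with a guide against exon 2 of Hif1an, the gene that encodes FIH, and were grown out from single-cell dilutions. WT and FIH-KO cells were kept either in normoxia (21% O2) or in hypoxia (1% O2) over 16 hours and received no other treatment. The 4 groups were therefore WT normoxia, FIH-KO normoxia, WT hypoxia and FIH-KO hypoxia, with 2 libraries each and 8 libraries in all. How many FIH-KO clones gave RNA, and whether the 2 libraries of a group came from separate cultures, are not given in the sources used here. The p values then measure the spread between these libraries, which may be technical, and an effect of FIH loss and a property of the sequenced clone cannot be told apart.

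Angiomotins are scaffold proteins of cell junctions and the actin cytoskeleton. Their N-terminal part carries short L/PPxY motifs (leucine or proline, proline, any residue, tyrosine) that are bound by the WW domains of YAP and TAZ, the coactivators at the end of the Hippo pathway, and a coiled coil and a C-terminal PDZ-binding motif connect them to polarity complexes. Angiomotins bound to YAP can hold it outside the nucleus, LATS kinases phosphorylate them, and the tankyrase and RNF146 system and NEDD4-type ubiquitin ligases control their turnover. Amotl2 is also a known YAP target gene. FIH is an asparaginyl hydroxylase that uses oxygen to restrain the transactivation domain of HIF-α, and the comparison of the paralogs asks which of them respond to its loss and to low oxygen.

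The libraries held between 14519731 and 18177016 counts. Reads of the targeted gene Hif1an numbered between 584 and 784 in the 4 FIH-KO libraries and between 1231 and 1609 in the 4 WT libraries, so the genotype labels matched the lower level in every library. Of the epithelial markers, Krt8 (104 to 332 CPM) and Krt18 (110 to 205 CPM) were abundant, while Epcam had 0 reads in every library and Cdh1 at most 1. Krt19 separated the oxygen conditions, at 0.65 to 1.03 CPM in the normoxia and 4.98 to 14.7 CPM in the hypoxia libraries. The mesenchymal markers Vim (3189 to 5442 CPM), Fn1 and Cdh2 were all present, and their sum separated the genotypes, at 4352 to 5967 CPM in WT and 8185 to 11000 CPM in FIH-KO libraries. Krt8 was also higher in each FIH-KO library (216 CPM or more) than in each WT library (151 CPM or less). Endothelial markers summed to at most 2.41 CPM, reached in WT hypoxia, and leukocyte markers to at most 0.205 CPM. Fibroblast markers summed to between 8.68 and 28.8 CPM, mostly Pdgfra. In normoxia Pdgfra had 27.4 and 25.1 CPM in WT and 17.0 and 17.4 CPM in FIH-KO libraries. In hypoxia it had 14.8 and 22.7 CPM in WT and 6.93 and 13.5 CPM in FIH-KO libraries. Dcn and Col1a1, at most 4.65 and 1.46 CPM, went the other way in both oxygen conditions, and Lum overlapped. Whether these levels had any part in the results was not tested.

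In GRCm39 Amot (ENSMUSG00000041688.17) occupies bases 144229421 to 144288177 of the X chromosome and is read from the minus strand. Amotl1 (ENSMUSG00000013076.18) and Amotl2 (ENSMUSG00000032531.16) both lie on chromosome 9 and are far apart there, Amotl1 on the minus strand from 14453262 to 14556352 and Amotl2 on the plus strand from 102593836 to 102610617. The union of annotated exons is 8402 bases for Amot, 10092 for Amotl1 and 7060 for Amotl2. The canonical transcripts encode 1126 residues (Amot), 968 (Amotl1) and 772 (Amotl2). In pairwise alignments of these products 54.5% of 838 aligned residues were identical between Amot and Amotl1, 49.7% of 755 between Amotl1 and Amotl2, and 48.0% of 759 between Amot and Amotl2. At the level of RNA, 0 stretches of 31 exonic bases were shared between any of the paralogs, so reads of one could hardly be counted on another. Other genes shared 0.18% of such stretches with Amot, 0.97% with Amotl1 and 0.71% with Amotl2. Antisense and other noncoding genes overlap Amot and Amotl1. Those that overlap Amot are absent from the count table, so their reads are not known. Of those that overlap Amotl1, the ones present in the count table held 0 reads in every library.

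What the family shares, and where its members part, shows at the YAP-binding sites. The coding DNA of each L/PPxY motif, read from GRCm39, is given below with its flanks, with the 4 codons of the motif in capitals. The first site is the LPxY motif of each protein, in Amot on X from 144270297 to 144270326 (minus strand, exon 1 of 11), in Amotl1 on chromosome 9 from 14504625 to 14504654 (minus strand, exon 3 of 13) and in Amotl2 on chromosome 9 from 102597642 to 102597671 (plus strand, exon 2 of 10).
Amot LPxY: aacgaagaaCTCCCAACCTATgaagaggcc
Amotl1 LPxY: aacgaggagCTCCCCACGTATgaggaagcc
Amotl2 LPxY: ggagaagagTTGCCCACCTATgaggaggcc
The following PPxY motif is also present in all 3, in the same exons as the first.
Amot first PPxY: cgaggtcccCCGCCAGAATACcctttcaag
Amotl1 first PPxY: cgtggccctCCACCTGAATACcccttcaag
Amotl2 first PPxY: cgcgggccaCCACCTCAGTACccacacgct
A further PPxY motif was found only in Amot and Amotl1 among the canonical products.
Amot second PPxY: tatcagcacCCCCCTGAGTATggggcagcc
Amotl1 second PPxY: tatcagccaCCCCCGGAGTATggcgtcacc
Amot and Amotl1 thus hold 3 such motifs each and Amotl2 holds 2. Annotated Amot transcripts also include Amot-201, which starts 17533 bases further upstream and encodes a product of 737 residues with 0 of these motifs. Counts per gene sum over all transcripts of a gene, so the product with the motifs and the shorter one cannot be told apart in these data.

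Amot had by far the largest difference between the genotypes among the 3 members. In normoxia it had 10.7 and 10.6 CPM (reads scaled to library size with TMM factors) in the WT libraries and 270 and 238 CPM in the FIH-KO libraries. In hypoxia it had 5.10 and 3.96 CPM in WT cells and 110 and 196 CPM in FIH-KO cells. The lowest FIH-KO library stood above the highest WT library in both oxygen conditions, as it did for 34.6% of all tested genes in normoxia and 29.1% in hypoxia. These levels correspond to a fold change of 23.8 in normoxia (95% interval 16.4 to 34.6, adjusted p = 5.51e-07, edgeR) and of 33.5 in hypoxia (22.4 to 50.01, adjusted p = 9.47e-07). The summed mesenchymal markers and Krt8 were higher in the same FIH-KO libraries, while Krt18 overlapped between the genotypes. Within each oxygen condition Pdgfra was lower in FIH-KO libraries, and the scarcer Dcn and Col1a1 were higher. The part of these markers in this result was not tested. By log2 fold change Amot ranked 55 of 13933 genes from the highest in normoxia and 27 in hypoxia. In bulk RNA, more cells that express a gene and more RNA per cell cannot be told apart.

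Amotl1, the member with the most reads in WT cells, varied least of the 3 across the 4 groups. It had 176 and 212 CPM in WT normoxia and 240.6 and 207 CPM in FIH-KO normoxia. In hypoxia it had 214 and 203 CPM in WT cells and 209 and 219 CPM in FIH-KO cells. The groups overlapped in each of the 4 comparisons of 2 groups. The fold change of FIH-KO over WT was 1.15 in normoxia (95% interval 0.961 to 1.39, adjusted p = 0.23, edgeR) and 1.03 in hypoxia (0.854 to 1.23, adjusted p = 0.851). For hypoxia over normoxia it was 1.07 in WT cells (0.895 to 1.29, adjusted p = 0.549) and 0.955 in FIH-KO cells (0.795 to 1.15, adjusted p = 0.766). The interval in normoxia leaves room for a rise of up to 1.39-fold after FIH loss, which is far below the lower bound of 16.4-fold for Amot.

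Amotl2 was lower in hypoxia. It had 39.3 and 30.4 CPM in WT normoxia and 27.1 and 22.6 CPM in WT hypoxia. In FIH-KO cells it had 43.4 and 64.1 CPM in normoxia and 28.4 and 28.7 CPM in hypoxia. In both genotypes each hypoxia library lay below each normoxia library, which held for 35.6% of tested genes in WT and 29.3% in FIH-KO cells. The fall was 1.88-fold in FIH-KO cells (95% interval 1.41 to 2.51, adjusted p = 0.00722, edgeR) and passed the test. In WT cells the ratio of normoxia to hypoxia was 1.40 (1.05 to 1.87, adjusted p = 0.0731), short of the threshold of 0.05. Without FIH-KO normoxia replicate 2, which held the highest Amotl2 level, the log2 fold change in FIH-KO cells was -0.58 (adjusted p = 0.0786) against -0.91 with it.

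Amotl2 also differed between the genotypes in normoxia, at 1.54-fold in FIH-KO over WT cells (95% interval 1.16 to 2.05, adjusted p = 0.0268, edgeR). This call rests on single libraries. The log2 fold change of 0.63 became 0.29 without FIH-KO normoxia replicate 2 (adjusted p = 0.306), 0.43 without WT normoxia replicate 2 (adjusted p = 0.25) and 0.79 without WT normoxia replicate 1 (adjusted p = 0.0515). In hypoxia Amotl2 was 1.15-fold in FIH-KO over WT cells (0.856 to 1.54, adjusted p = 0.488, edgeR). The groups did not overlap (the lower FIH-KO library stood at 28.4 CPM and the higher WT library at 27.1). Both FIH-KO libraries likewise stood above both WT libraries in hypoxia for 29.1% of all tested genes.

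**Figure D1:**
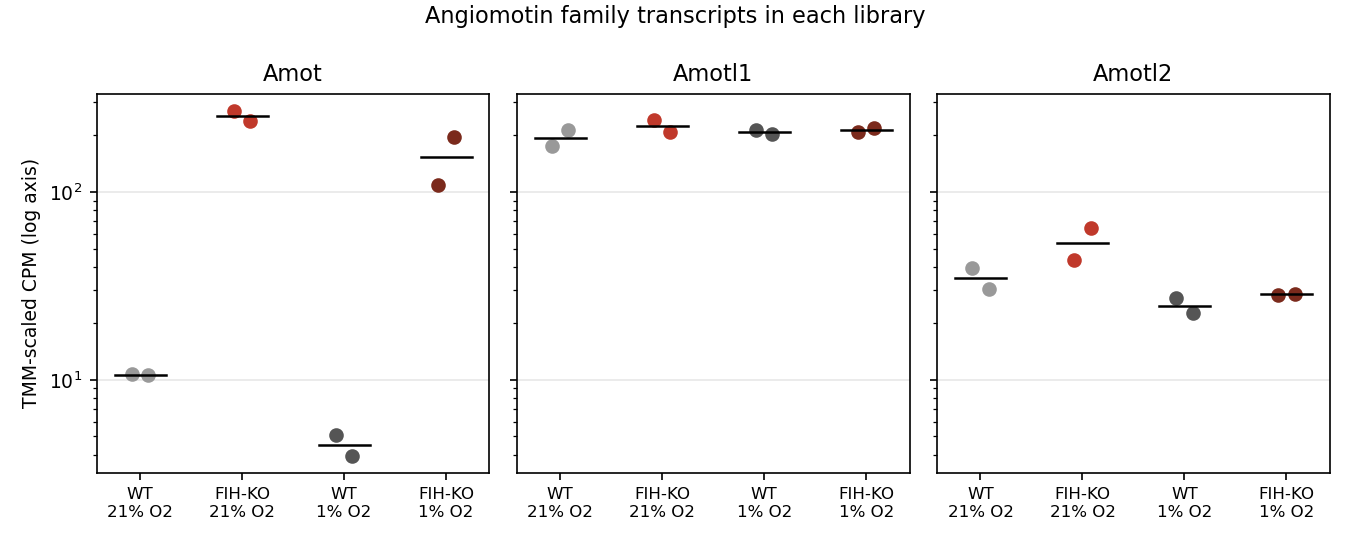
Level of each angiomotin in each library, in TMM-scaled CPM on a log axis, with the library values as points and the group mean as a bar (2 libraries a group). Amot spans from 3.96 to 270 CPM, Amotl1 stays between 176 and 240.6 CPM, and Amotl2 lies between 22.6 and 64.1 CPM with its hypoxia libraries lowest in each genotype.

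Amot itself also fell with hypoxia, in the background of its much larger difference between the genotypes. In WT cells the level fell by 1.22 on the log2 scale (95% interval of the fold 1.53 to 3.57, adjusted p = 0.00632, edgeR), from few reads: 167 and 179 in normoxia and 91 and 58 in hypoxia. Without WT hypoxia replicate 2 the log2 fold change was -1.07 (adjusted p = 0.0586). In FIH-KO cells it fell by 0.73 (1.22-fold to 2.26-fold, adjusted p = 0.0289). The FIH-KO hypoxia libraries were 1.79 times apart, and 6 of the 8 fits that left out 1 library did not pass the threshold. Without FIH-KO hypoxia replicate 1 the value was -0.35 (adjusted p = 0.125) and without FIH-KO hypoxia replicate 2 it was -1.22, and the fit of only the 4 FIH-KO libraries gave -0.70 (adjusted p = 0.0879). In FIH-KO cells the call for Amot is thus less stable than that for Amotl2, which passed the threshold in 7 of those 8 fits.

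Counted by comparison, FIH-KO cells had 2 of the 3 members higher in normoxia and 1 of 3 in hypoxia, and 0 were lower. Of all tested genes 28.2% passed the test in normoxia, 15.2% higher and 13% lower, and 28% in hypoxia, 14.1% higher and 13.9% lower. With hypoxia 1 of 3 members fell in WT cells, where 32.4% of tested genes passed the test and 15.5% fell, and 2 of 3 fell in FIH-KO cells, where 16.8% passed and 8% fell. None rose with hypoxia in either genotype, where 16.9% and 8.84% of tested genes rose. By overlap alone, 2 of 3 members were higher in FIH-KO cells and 2 of 3 were lower in hypoxia in every comparison. Of all tested genes 34.6% were higher without overlap in FIH-KO cells in normoxia and 29.1% in hypoxia. With hypoxia 35.6% were lower without overlap in WT cells and 29.3% in FIH-KO cells. With 2 libraries a group such separation is thus common.

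Whether FIH loss acted unequally in the 2 oxygen conditions was tested as an interaction. The difference of the log2 fold changes, hypoxia minus normoxia, was 0.49 for Amot (95% interval -0.27 to 1.25, adjusted p = 0.815, edgeR), -0.17 for Amotl1 (-0.55 to 0.20, adjusted p = 0.879) and -0.43 for Amotl2 (-1.01 to 0.16, adjusted p = 0.806). No difference was shown for any member, and the intervals for Amot and Amotl2 still hold changes of more than 2-fold. This test called 0% of the 13933 genes with edgeR, where 925 had an unadjusted p under 0.05, and 37 genes with DESeq2. For Amotl2, a call in normoxia and none in hypoxia is therefore not a shown difference between the conditions.

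**Figure D2:**
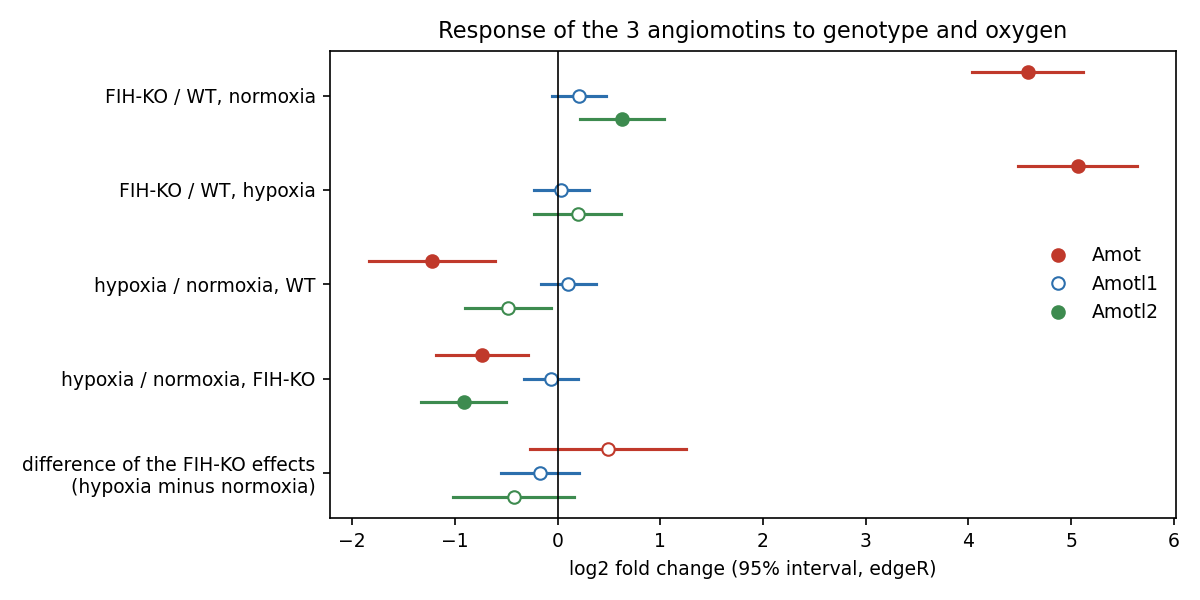
Log2 fold change of each member with its 95% interval in the 4 comparisons of 2 groups and in the difference between the FIH-KO effects, from the edgeR fit of all 8 libraries. Filled points passed an adjusted p of 0.05, as Amot did in 4 comparisons and Amotl2 in 2, while every Amotl1 interval includes 0.

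Because a ratio of 2 paralogs within a library cancels depth, it shows directly whether they responded unequally. For each of the 3 pairs the log2 ratio of reads (with 0.5 read added to each) was compared between the 4 FIH-KO and the 4 WT libraries, and between the 4 hypoxia and the 4 normoxia libraries, with a two-sided exact permutation test whose smallest possible p is 0.0286. The Amot to Amotl1 log2 ratio was -0.18 ± 0.53 in FIH-KO and -4.85 ± 0.80 in WT libraries (SD, n = 4 each). Each SD by genotype pools both oxygen conditions, so it holds their difference as well as the spread between replicates. The difference was 4.67 (exact permutation p = 0.0286, 0.0429 adjusted over the 3 pairs). The Amot to Amotl2 log2 ratio was 2.31 ± 0.46 in FIH-KO and -2.07 ± 0.46 in WT libraries, a difference of 4.39 (exact permutation p = 0.0286, adjusted 0.0429). Amot thus rose against both paralogs, and every FIH-KO library stood above every WT library in both ratios. Permuted only within each oxygen condition, or only within replicate numbers, both p were 0.0556 (exact permutation), the smallest those splits allow, so neither passes 0.05 there. The Amotl2 to Amotl1 log2 ratio was -2.49 ± 0.57 in FIH-KO and -2.78 ± 0.44 in WT libraries, and the difference of 0.28 was within the spread (exact permutation p = 0.514).

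By oxygen, with the genotypes pooled, the Amotl2 to Amotl1 log2 ratio was -2.99 ± 0.13 in the hypoxia and -2.28 ± 0.47 in the normoxia libraries (SD, n = 4 each), with no overlap. The difference was -0.71 (exact permutation p = 0.0286), and adjusted over the 3 pairs the p was 0.0857, which does not pass 0.05. For Amot to Amotl1 the difference by oxygen was -1.04 (exact permutation p = 0.514) and for Amot to Amotl2 it was -0.33 (exact permutation p = 0.686), both in libraries whose ratios spread widely because WT and FIH-KO are pooled. Within 1 genotype the p of 2 against 2 libraries cannot go below 0.333, and only values are given. The Amot to Amotl1 log2 ratio changed with hypoxia by -1.35 in WT and by -0.73 in FIH-KO cells, without overlap in either. Permuted within the genotypes its p was 0.0556 (exact permutation), the smallest those splits allow. The Amot to Amotl2 log2 ratio changed by -0.76 in WT cells and by 0.09 in FIH-KO cells, where both genes fell.

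Abundances of different genes were compared per kilobase of annotated exon. In WT normoxia Amotl1 stood at 19.2 ± 2.57 CPM per kilobase, Amotl2 at 4.94 ± 0.89 and Amot at 1.27 ± 0.01 (SD, n = 2 each). In WT hypoxia the levels were 20.7 ± 0.75 for Amotl1, 3.52 ± 0.45 for Amotl2 and 0.54 ± 0.10 for Amot. The order Amotl1, Amotl2, Amot held in 4 of 4 WT libraries, with every step larger than the spread. In FIH-KO normoxia Amot came first in both libraries, at 30.3 ± 2.69 CPM per kilobase, with Amotl1 at 22.2 ± 2.32 and Amotl2 at 7.61 ± 2.07. In FIH-KO hypoxia Amot (18.2 ± 7.30) and Amotl1 (21.2 ± 0.69) did not differ beyond their spread. Amotl1 was ahead of Amot in replicate 1 and behind it in replicate 2, and Amotl2 was last in both at 4.05 ± 0.03.

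As a share of the summed family level, Amot made up 5.01% ± 0.37 in WT normoxia and 2.17% ± 0.27 in WT hypoxia, and 50.3% ± 2.02 and 41.0% ± 9.23 in the FIH-KO groups (SD, n = 2 each). Amotl1 went from 75.4% ± 5.16 in WT normoxia to 36.9% ± 2.05 in FIH-KO normoxia with hardly any change of its own level. The family sum was 25.4 ± 1.68 CPM per kilobase in WT normoxia and 24.7 ± 1.31 in WT hypoxia. In FIH-KO cells it was 60.1 ± 2.93 in normoxia and 43.5 ± 8.02 in hypoxia. Among the 13898 tested genes with a length, Amot moved from the 27.2 percentile of the level per kilobase in WT normoxia to the 92.0 percentile in FIH-KO normoxia. Amotl1 stayed between the 85.6 and the 88.0 percentile in all 4 groups. With the coding length in place of the exon union, the shares of Amot and Amotl1 in FIH-KO normoxia were nearly equal at 43.8% and 43.2%. The size of the lead of Amot there thus depends on the length chosen. Amot still came first in both libraries with the coding length, but at only 1.0 and 1.03 times the level of Amotl1.

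**Figure D3:**
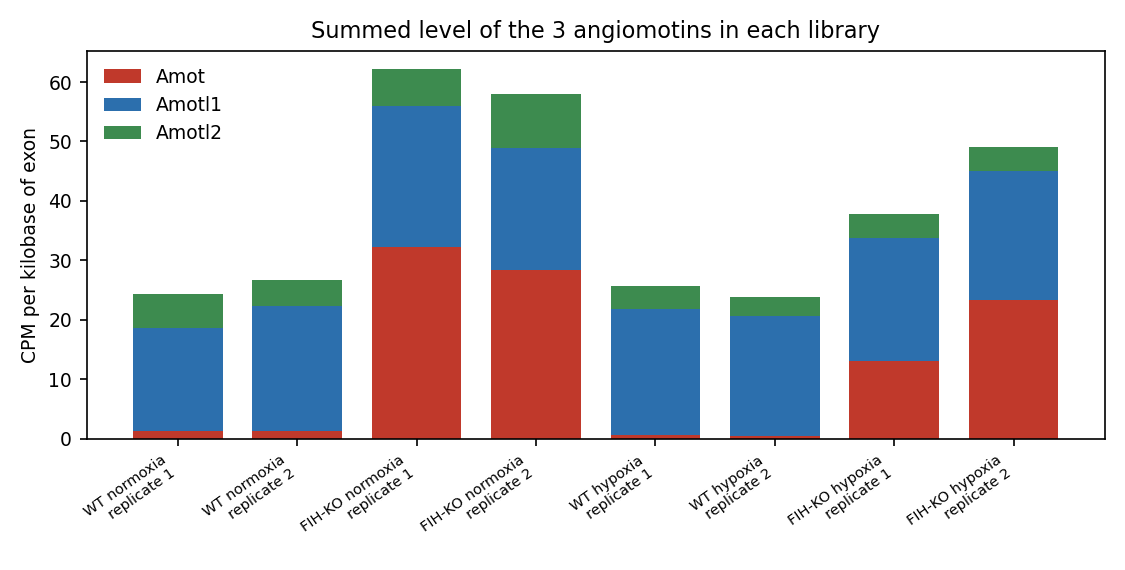
Summed level of the 3 angiomotins in each library, in CPM per kilobase of annotated exon, with 1 stacked bar per library. The Amotl1 part is similar in all 8 bars, and the FIH-KO bars are taller through the Amot part, which differs between the FIH-KO hypoxia replicates.

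The starts of the 3 genes differ in sequence and are shown here. Whether these sequences had any part in the unequal response of the members to FIH loss was not tested. Each window is the part of the 250 bases upstream of an annotated start in GRCm39 that lies outside annotated exons. The windows at the canonical starts of all 3 genes lie within transcripts that start further upstream, between exons of those transcripts. Capitals mark the core of the hypoxia-response element, ACGTG or GCGTG on either strand, and GGAATG on either strand, the core bound by TEAD factors, the DNA-binding partners of YAP and TAZ. In all protein-coding genes (21770 windows of 250 bases upstream of the canonical start) ACGTG was present in 17.0%, GCGTG in 31.2%, one or the other in 41.3% and GGAATG in 12.1%. For Amot the canonical transcript starts at its start codon, inside an exon of the upstream-start transcript Amot-206, and the part of its window outside exons (chrX:144270653-144270885, minus strand) holds CACGTG. That is the core ACGTG on both strands at once, overlapping in 4 bases.
Amot canonical start: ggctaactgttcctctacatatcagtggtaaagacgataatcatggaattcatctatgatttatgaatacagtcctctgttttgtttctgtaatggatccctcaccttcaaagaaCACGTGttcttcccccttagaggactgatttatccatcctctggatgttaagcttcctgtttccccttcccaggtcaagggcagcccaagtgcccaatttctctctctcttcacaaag
The most upstream start of Amot (window chrX:144288178-144288427, minus strand) holds neither core of the hypoxia-response element and 1 GGAATG, read here on the opposite strand, and the search says nothing of bases beyond the window.
Amot upstream start: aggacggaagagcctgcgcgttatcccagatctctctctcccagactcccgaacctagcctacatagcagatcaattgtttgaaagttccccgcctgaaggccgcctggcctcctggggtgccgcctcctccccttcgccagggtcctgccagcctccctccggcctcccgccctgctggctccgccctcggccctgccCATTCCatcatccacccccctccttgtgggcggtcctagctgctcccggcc
The window at the canonical start of Amotl1 (chr9:14526331-14526496, minus strand) holds 1 ACGTG, on the opposite strand.
Amotl1 canonical start: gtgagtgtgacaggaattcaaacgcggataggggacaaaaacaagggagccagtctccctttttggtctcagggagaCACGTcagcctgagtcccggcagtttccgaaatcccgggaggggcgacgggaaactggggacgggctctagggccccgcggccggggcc
The window at the canonical start of Amotl2 (chr9:102594653-102594866, plus strand) holds no core of the hypoxia-response element and 1 GGAATG, and the full 250 bases hold another GGAATG.
Amotl2 canonical start: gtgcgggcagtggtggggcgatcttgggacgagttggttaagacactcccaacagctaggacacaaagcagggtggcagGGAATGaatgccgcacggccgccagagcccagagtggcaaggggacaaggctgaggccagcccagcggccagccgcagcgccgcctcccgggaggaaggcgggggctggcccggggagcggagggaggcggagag
The most upstream start of Amotl2 (window chr9:102593586-102593835, plus strand) does hold a core, GCGTG on the opposite strand, next to a GGAATG.
Amotl2 upstream start: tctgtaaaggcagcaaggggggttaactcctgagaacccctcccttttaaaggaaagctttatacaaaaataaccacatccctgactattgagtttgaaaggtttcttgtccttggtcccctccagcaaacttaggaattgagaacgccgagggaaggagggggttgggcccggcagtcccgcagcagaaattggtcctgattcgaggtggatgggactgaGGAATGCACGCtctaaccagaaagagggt
The most upstream start of Amotl1 holds 1 GGAATG and no core of the hypoxia-response element. Each of the 3 genes thus has such a core at one of its 2 starts examined and GGAATG at one or both. The shares over all protein-coding genes are for 1 window per gene. They are no measure for 2 windows per gene, and nothing is concluded from this count. In the full 250 bases CG dinucleotides numbered 3 at the canonical and 14 at the upstream start of Amot, 13 and 3 for Amotl1, and 17 and 6 for Amotl2. These matches are letters in the reference, not measured binding. Gene counts do not show which start was used.

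The genes next to each member on its chromosome were examined, 5 tested genes on each side. Around Amot 3 of 10 neighbours were higher and 2 lower after FIH loss in normoxia, and 3 were higher and 0 lower in hypoxia. The median log2 fold change of the 10 was 0.02 in normoxia and 0.40 in hypoxia, beside 4.57 and 5.06 for Amot. The 3 that were higher in both conditions were Tmem164 (log2 fold change 0.73 in normoxia and 0.71 in hypoxia), Lrch2 (3.16 and 3.52) and Lhfpl1. Lhfpl1, the nearest neighbour on its side, has its lowest coordinate 156.1 kilobases from that of Amot. Lhfpl1 had 3, 1, 0 and 1 reads in the WT libraries and between 7 and 33 in the FIH-KO libraries. The lowest coordinate of Lrch2 lies 2024 kilobases from that of Amot, and Lrch2 went from 24 and 23 reads in WT normoxia to 227 and 223 reads in FIH-KO normoxia. Of 471 tested genes on the whole X chromosome, 20.6% were higher after FIH loss in normoxia and 24.4% in hypoxia, against 15.2% and 14.1% of all tested genes.

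Around Amotl1, 1 of 10 neighbours was higher and 5 lower in normoxia, where 13% of all tested genes were lower, and in hypoxia 0 were higher and 4 lower, where 13.9% were. Cep57 (log2 fold change -0.54 in normoxia and -0.61 in hypoxia), Fut4 (-1.34 and -1.22), Mre11a (-0.60 and -0.57) and 1700012B09Rik, with at most 32 reads in a library, were lower in both. Around Amotl2 2 of 10 were higher and 3 lower in normoxia, and 2 were higher and 4 lower in hypoxia. Ky (2.67 and 2.97), whose start lies 210.9 kilobases from that of Amotl2, and Ppp2r3a (0.53 and 0.69) were higher in both conditions. Rab6b (-0.64 and -0.58), Topbp1 (-0.53 and -0.44) and Cdv3 (-0.45 and -0.45) were lower in both. On chromosome 9 as a whole 9.1% of 772 tested genes were higher and 21.0% lower in FIH-KO cells in normoxia. For hypoxia against normoxia, 16.9% of all tested genes rose and 15.5% fell in WT cells, and 8.84% and 8% in FIH-KO cells. Of the 10 neighbours of Amot 0 rose in either genotype, and 2 fell in WT and 1 in FIH-KO cells. Tmem164 fell in both (log2 fold change -0.45 and -0.47). For Amotl1 0 of the 10 neighbours passed the test in either genotype. Around Amotl2 1 rose and 1 fell in WT cells and 0 moved in FIH-KO cells, where Amotl2 fell.

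**Figure D4:**
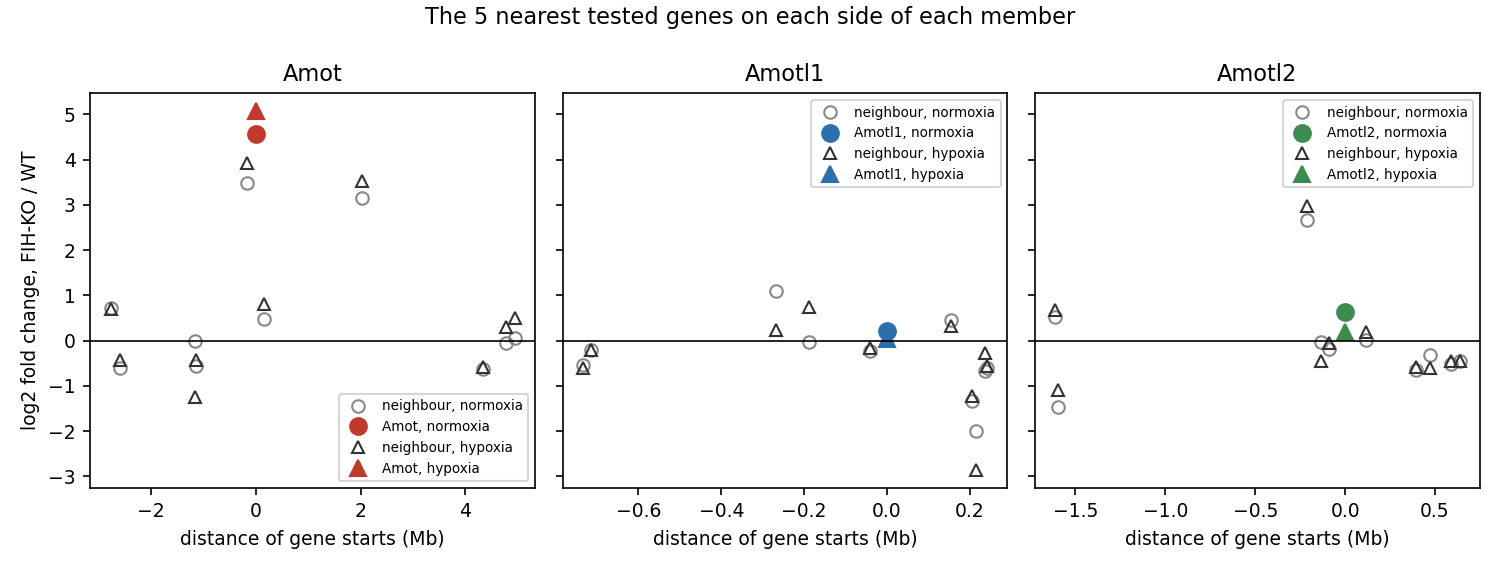
Log2 fold change of FIH-KO over WT for the 5 nearest tested genes on each side of each member, against the distance between gene starts in megabases (circles for normoxia, triangles for hypoxia, the member itself filled). The start is here the lowest coordinate of a gene on either strand. Amot stands at 4.57 and 5.06 with Lhfpl1 and Lrch2 as its highest neighbours, Amotl1 lies at 0.21 and 0.04 among neighbours that are mostly lower, and Ky is the high neighbour of Amotl2.

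The genes whose pattern over the 8 libraries was most like each member were found by Pearson's r of log2 CPM among 10575 other genes whose mean count was 50 or more. The 8 libraries fall into 4 groups and share their group levels, so r describes likeness of group levels and carries no test. For Amot the 5 highest were Magee1 (r = 0.998), Car5b (0.997), Inpp5e (0.996), Thbs2 (0.994) and Mlph (0.994). The mean count was taken over all 8 libraries, which lets in genes that are high only in FIH-KO cells. Magee1 (8 to 21 reads in the WT libraries), Car5b (4 to 12) and Mlph (24 to 49) passed only through their FIH-KO reads. Their WT levels thus rest on few reads. Magee1 and Car5b are X-linked like Amot, and Magee1 had log2 fold changes of 3.79 and 4.35 with FIH loss and -1.22 and -0.66 with hypoxia. Inpp5e followed the same course at a much smaller size, at 0.59 and 0.72 with FIH loss. In all, 698 genes had an r over 0.9 with Amot, against 27 with Amotl2 and 3 with Amotl1.

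For Amotl2 the 5 highest were Anxa3 (r = 0.968), Pgs1 (0.959), Miga2 (0.948), Brf1 (0.938) and St3gal5 (0.937). St3gal5, a ganglioside synthase, had log2 fold changes of -0.61 and -0.73 with hypoxia in WT and FIH-KO cells. For Amotl1, whose groups overlapped, the 5 highest were Insig1 (0.949), Sp3os (0.911), Tmed3 (0.911), Glb1 (0.886) and Tyk2 (0.884). Between the members themselves r was 0.589 for Amot and Amotl2, 0.496 for Amot and Amotl1 and 0.006 for Amotl1 and Amotl2.

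The proteins that bind, modify or are held by angiomotins were examined as 5 lists. Their counts stand beside shares of 15.2% higher and 13% lower in normoxia, and of 14.1% and 13.9% in hypoxia, over all tested genes, whose median log2 fold changes were 0.00 and -0.03. Among 10 genes of angiomotin turnover and phosphorylation, all tested, 3 were higher and 1 lower with FIH loss in normoxia, and 1 was higher and 1 lower in hypoxia. The medians were 0.20 and 0.08 on the log2 scale. Nedd4l, a HECT-type ubiquitin ligase, rose by 0.82 in normoxia (adjusted p = 0.000283) and by 0.34 in hypoxia (adjusted p = 0.036). Rnf146, the ligase that reads tankyrase marks, rose by 0.58 in normoxia (adjusted p = 0.0102). Tnks2, one of the tankyrases, fell by 0.64 and 0.59 (adjusted p = 0.00119 and 0.00203). The kinase genes Lats1 and Lats2 had log2 fold changes of 0.27 and 0.17 in normoxia, and neither passed the test.

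Of the 10 Hippo core and scaffold genes, all tested, 0 were higher and 2 lower in each oxygen condition, a share near that of all tested genes, with medians of -0.02 and -0.06. The 2 were Wwc1, which encodes the scaffold KIBRA and fell by 0.68 in normoxia and 0.76 in hypoxia (adjusted p = 0.0375 and 0.0222), and Nf2, which encodes Merlin and fell by 0.50 and 0.43 (adjusted p = 0.0129 and 0.0261). Of Yap1, Wwtr1 (the gene of TAZ) and the 4 TEAD genes, 1 was higher and 1 lower in both conditions. Tead3 rose by 1.35 in normoxia and 1.03 in hypoxia (adjusted p = 0.000159 and 0.00109), and Tead4 fell by 1.01 and 0.89 (adjusted p = 0.0009 and 0.00187). Yap1 had values of -0.18 and -0.19 and Wwtr1 of 0.02 and -0.07, and none of these passed the threshold.

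Of the 14 polarity, junction and cytoskeletal partners 12 were tested, and Patj and Crb3 had at most 4 and 0 reads in a library. In normoxia 1 was higher and 1 lower, and in hypoxia 2 were higher and 3 lower, with medians of 0.00 and 0.01. Arhgap17, a GTPase-activating protein for Cdc42 and Rac1 that angiomotins bind, rose by 0.71 and 0.46 (adjusted p = 0.00147 and 0.0166). Mpdz, a scaffold with many PDZ domains, fell by 1.22 and 1.05 (adjusted p = 0.000159 and 0.000585). Cdc42 rose by 0.33 in hypoxia (adjusted p = 0.043). Cdh5, the endothelial cadherin, had 35 and 18 reads in WT hypoxia and 5 and 3 in FIH-KO hypoxia, and at most 2 reads in each normoxia library.

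Of 19 YAP and TAZ target genes other than Amotl2, 16 were tested. In normoxia FIH-KO cells had 2 of them higher and 4 lower, and in hypoxia 3 were higher and 4 lower, with medians of -0.14 and -0.31. Crim1, a transmembrane protein that binds growth factors, rose by 0.88 and 0.53 (adjusted p = 0.000143 and 0.00328), and Arhgef17 by 0.53 and 0.51 (adjusted p = 0.00306 and 0.00428). The largest falls were those of genes with few reads. Nt5e had 17 and 14 reads in WT normoxia and 2 and 2 in FIH-KO normoxia, and in hypoxia 7 and 5 against 0 and 1. Tgfb2 had 35 and 41 reads in WT normoxia against 11 and 9, and Fjx1 had 75 and 45 reads in WT hypoxia against 10 and 8. Amotl2, itself a YAP target, was higher in FIH-KO normoxia by a call that rests on single libraries. The median of the other targets there was -0.14, and 10 of the 16 did not pass the test, so no divergence of Amotl2 from them is shown.

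With hypoxia, 16.9% of all tested genes rose and 15.5% fell in WT cells, and 8.84% rose and 8% fell in FIH-KO cells. The turnover list had 2 genes that rose and 0 that fell in WT cells (median 0.21) and 1 and 0 in FIH-KO cells (median 0.13). The Hippo core list had 0 and 0 in WT cells and 0 and 1 in FIH-KO cells. Among Yap1, Wwtr1 and the TEAD genes 0 rose and 2 fell in each genotype, with medians of -0.18 and -0.30. Of the polarity partners 3 rose and 4 fell in WT cells and 0 and 1 in FIH-KO cells. Of the YAP and TAZ targets 4 rose and 3 fell in WT cells (median -0.16) and 1 rose and 3 fell in FIH-KO cells (median -0.40), beside the fall of Amotl2. The edgeR interaction test of genotype and oxygen called 0 of the 13933 tested genes, so its 0 calls in the 5 lists say nothing particular to them. DESeq2 called 37 genes of the whole table.

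**Figure D5:**
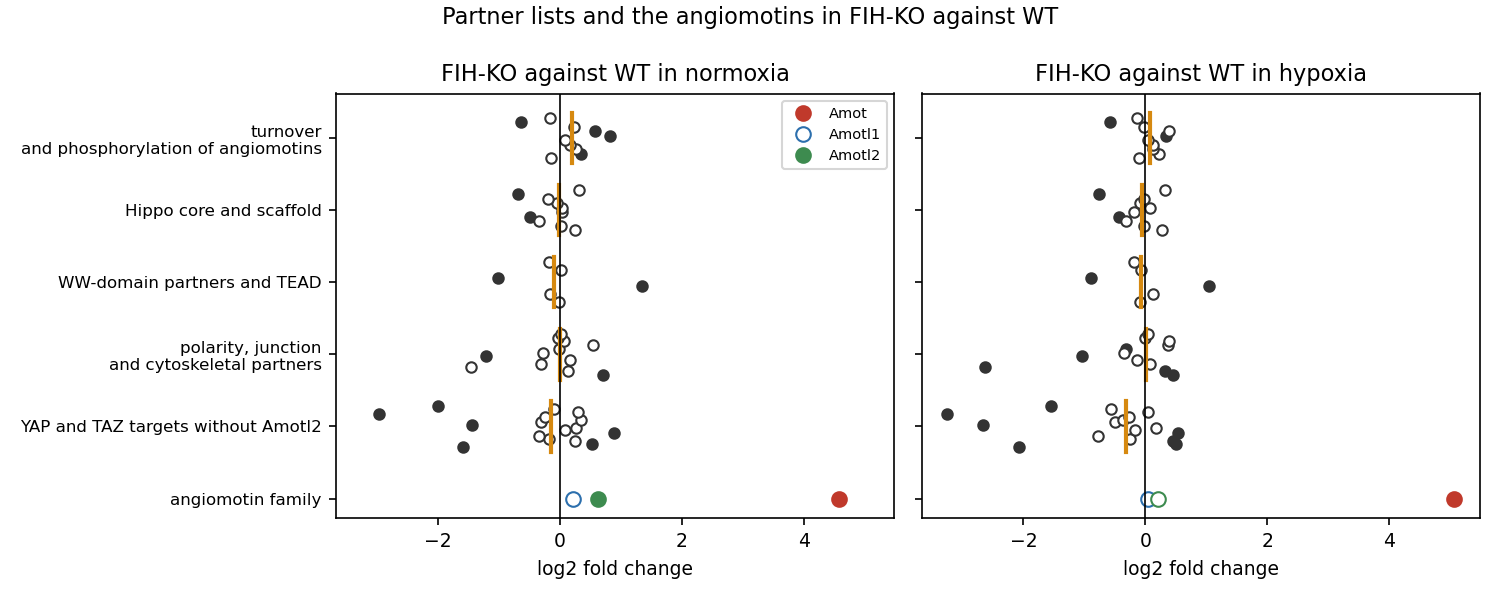
Log2 fold change of FIH-KO over WT for the tested genes of 5 partner lists and for the angiomotins, in normoxia (left) and hypoxia (right), with filled points past an adjusted p of 0.05 and a bar at each list's median. The list medians lie between -0.31 and 0.20, and Amot, at 4.57 and 5.06, stands beyond every listed gene.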

How the data were processed

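RNA-Seq libraries (stranded mRNA, paired-end) of mouse LLC cells were used. The authors aligned reads with STAR and deposited raw counts per gene made with HTSeq. The paper names GRCm39, and the submitters' processing notes name STAR, DESeq2, GRCm38/mm10 and GRCm39/mm39. The annotation release and strand setting are not given in the sources used here. Groups came from the labels, and all 8 sample columns were used. Counts were fitted with edgeR 4.0.16 under R 4.3.3 (quasi-likelihood test, 1 mean per group, TMM scaling, the filterByExpr filter) with Benjamini-Hochberg adjustment over the 13933 tested genes and a threshold of 0.05. The fit was tested on simulated data. Library totals of 14519731 to 18177016 leave counting error small for Amotl1 and larger for Amot in WT hypoxia (58 reads in the lowest library). Ratios were permuted with scipy in Python. Positions, lengths and sequences came from GENCODE on GRCm39, which held 97.97% of the identifiers.

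The members, lists and tests were chosen with earlier results of these data known. Genes were named by rule: the members, Hif1an, the 2 largest rises and 2 largest falls past the threshold of each list in each oxygen condition, the 5 most alike genes whose mean count was 50 or more, and neighbours past the threshold in both conditions. Lats1, Lats2, Yap1, Wwtr1, Patj and Crb3 were named after their values were seen. Alternatives were DESeq2 1.42.0, RLE and upper-quartile scaling, other filters, only the compared libraries, the replicate number as a term, each library left out, a prior of 2 reads, and other gene lengths.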

Additional observations from a re-analysis of the deposited data

How the results depend on the processing

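The rise of Amot with FIH loss was past the threshold under every alternative run, with log2 fold changes of 4.56 to 4.59 in normoxia and 5.04 to 5.10 in hypoxia, and of 4.46 to 4.64 and 4.59 to 5.47 with 1 library left out. Amotl1 passed the threshold under no alternative. With 1 library left out its log2 fold change ran from 0.05 to 0.33 with FIH loss in normoxia, 0.00 to 0.11 in hypoxia, -0.069 to 0.21 with hypoxia in WT cells and -0.15 to 0.063 in FIH-KO cells, and its interaction from -0.26 to 0.025. Amotl2 ran from 0.29 to 0.86 with FIH loss in normoxia, 0.08 to 0.37 in hypoxia, -0.70 to -0.33 with hypoxia in WT cells and -1.15 to -0.58 in FIH-KO cells. Its fall in WT cells passed the threshold without the filter beyond 1 read (-0.50, adjusted p = 0.0157), in the fit of only the 4 WT libraries (-0.48, adjusted p = 0.0223) and without FIH-KO hypoxia replicate 1 or either FIH-KO normoxia library, and with DESeq2 its adjusted p was 0.0527. Amot with hypoxia ran from -1.46 to -1.07 in WT cells and -1.22 to -0.35 in FIH-KO cells, where the fit of only the 4 FIH-KO libraries gave -0.70 (adjusted p = 0.0879). The interaction ran from 0.01 to 0.92 for Amot and -0.62 to -0.06 for Amotl2. A group left with 1 library was assumed to vary like the others. The cause of these changes was not tested.

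The number of genes called ran, with 1 library left out, from 1735 to 4672 and 2170 to 3887 for FIH loss in normoxia and hypoxia, from 2124 to 5270 and 1097 to 2604 for hypoxia in WT and FIH-KO cells, and from 0 to 39 for the interaction. Only the 4 libraries gave 1289 genes for hypoxia in FIH-KO cells, against 2345. The interaction called 0 genes, 143 without the filter, 37 with DESeq2 and 5 with the replicate block. Deviations of same-numbered libraries correlated between -0.01 and 0.17 over the pairs of groups, so the replicate numbers were not taken to pair the samples, and with the replicate block no call of a member changed (Amot 4.58 and 5.04 with FIH loss, Amotl2 0.63 in normoxia).

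The permutation tests lose their call wherever fewer splits are possible. Permuted within the other factor or within replicate numbers (replicate block), p was 0.0556, the smallest these splits allow, for Amot to Amotl1 (4.67) and Amot to Amotl2 (4.39) by genotype and for Amotl2 to Amotl1 (-0.71) by oxygen. Permuted within genotype it was also 0.0556 for Amot to Amotl1 (-1.04) by oxygen, against 0.514 over all splits. With 1 library left out the smallest p is 0.0571, and the differences by genotype ran from 4.40 to 4.94, 4.23 to 4.57 and 0.02 to 0.49 (Amotl2 to Amotl1). By oxygen they ran from -2.0 to -0.16, -1.27 to 0.49 (which changed sign in 4 of 8) and -0.88 to -0.51.

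With the longest transcript as length, the share of Amotl1 was 70.2%, 34.1% and 79.4% in WT normoxia, FIH-KO normoxia and WT hypoxia, and that of Amotl2 24.8%, 18.4% and 12.1% in WT normoxia, WT hypoxia and FIH-KO hypoxia. With the coding length, Amot made up 3.87%, 43.8% and 1.65% in WT normoxia, FIH-KO normoxia and WT hypoxia, Amotl1 43.2% and 85.6% in FIH-KO normoxia and WT hypoxia, and Amotl2 12.7% in WT hypoxia. Under both lengths Amotl1, Amotl2, Amot was the order in 4 of 4 WT libraries, and with the coding length Amotl1 led in both FIH-KO hypoxia libraries.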
